A study of Homo sapiens with 3 samples.

Results

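The 2 RNA-sequencing libraries of A549 cells that carried shRNAs against DDX24 were compared with each other, DDX24-sh2 over DDX24-sh1. The comparison used the 13984 genes, of 58735 in the deposited counts, whose mean over all 3 libraries of the study was at least 1 CPM, the count scaled by the library total. A549 is an established human lung adenocarcinoma line. The 3 libraries came from cells with a control lentiviral vector (Control-sh), from cells labelled as knockdown 1 of DDX24 (DDX24-sh1) and from cells labelled as knockdown 2 (DDX24-sh2), with 1 library each. All 3 lines were grown in F12K medium with serum, and the study's methods describe stable lines made with the pLKO.1 lentiviral vector and puromycin, with the empty vector as control, so that resistance to the drug is shared by all of them. Another passage of the study speaks of a control shRNA instead, and the sources used here give no hairpin sequence and do not say whether a line is a clone or a pool. Control-sh entered only to show which of the shRNA libraries stood away from it.

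DDX24 is a DEAD-box protein, a family of ATP-dependent RNA helicases that act in splicing, ribosome assembly and other steps of RNA metabolism. A short hairpin RNA is cut into a small interfering RNA that directs the decay of a matching mRNA, and it can also lower other mRNAs through matches to its seed. Hairpins that differ in sequence share the intended target and not these other matches, which is why a knockdown is usually made with more than one of them.

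With 1 library a side no test between the libraries was possible, and every value below is a description of these 2 libraries. Ratios are log2 ratios of CPM with a prior count of 2, after scaling by the trimmed mean of M-values (TMM). The interval beside a ratio is an exact 95% binomial interval from the 2 counts, which covers counting error and not the variation between cultures or library preparations. A difference between the hairpins therefore cannot be told apart from a difference between 2 cultures or 2 preparations.

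Where 3 counts of a gene are given they stand in the order Control-sh, DDX24-sh1, DDX24-sh2. Total counts in this order were 17218884, 18337471 and 17847190. Mitochondrial genes made up 4.36%, 5.13% and 7.04% of them, and 22462, 22965 and 23900 genes had a count. The 6 epithelial markers examined (KRT7, KRT8, KRT18, KRT19, EPCAM and CDH1) summed to between 7705 and 7790 CPM in each library. KRT7, KRT8 and KRT18 made up most of the sum. KRT19 rose (1001, 2251 and 2728 counts), CDH1 fell (538, 358 and 261), and EPCAM was low in each library (32, 29 and 29). For 11 markers of fibroblasts, endothelium and blood cells the sums were 12.4, 13.3 and 10.1 CPM, and PTPRC and CD3E were at 0 in all 3 libraries. These sums cover members that moved in opposite directions. CD14 (139, 108 and 75 counts) and PDGFRB (21, 15 and 9) fell. LUM (27, 80 and 68) and PDGFRA (10, 25 and 22) were higher than the control in both shRNA libraries. The alveolar markers SFTPA1 and NKX2-1 were also at 0 in all 3, and SFTPB and SFTPC had at most 4 counts. The deposited FPKM values carry the shRNA labels the other way round: those labelled DDX24-sh1 were proportional to the counts labelled DDX24-sh2 in 100% of 12136 genes (within 1% of a constant), against 5.23% of genes for the counts of the same label. Which labelling is right is not known, and exchanging the labels turns the direction of every ratio below. The names used here are those of the counts.

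The target of the hairpins was at a similar level in both shRNA libraries. DDX24 (ENSG00000089737, chromosome 14, 94048291 to 94081245, minus strand, GRCh38) had 2010, 637 and 765 counts, or 118, 34.8 and 42.4 CPM. DDX24-sh2 thus held 1.22 times the level of DDX24-sh1, a log2 ratio of 0.28 (interval 0.13 to 0.44). Both libraries lay well below the control, DDX24-sh1 the farther of them. OTUB2 overlaps 640 exonic bases of DDX24 on the opposite strand and had 144, 219 and 260 counts, and strand is not stated for the counting.

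Across the 13984 genes the median log2 ratio was -0.01, the middle 95% ran from -0.75 to 0.80, and 89.8% of genes differed by less than 1.5-fold. At least 2-fold higher in DDX24-sh2 were 182 genes, 1.3% of those compared, and at least 2-fold lower were 141, or 1.01%. Of the 323 genes, 190 were protein-coding and 322 had an interval that excluded 0, as did 6257 of all 13984 genes. Most were weakly expressed: 249 had a mean of 1 to 5 CPM, where they made up 8.64% of genes, whereas only 3 had a mean of 100 CPM or more, 0.141% of the genes at that level. At 1.5-fold, 745 genes were higher (5.33%) and 677 lower (4.84%). The genes nearest the 2-fold limit were FAM111B (1.0) and NR4A1 (-1.01) just inside, and HERC2P3 (0.99) and NR4A3 (-0.98) just outside.

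**Figure D1:**
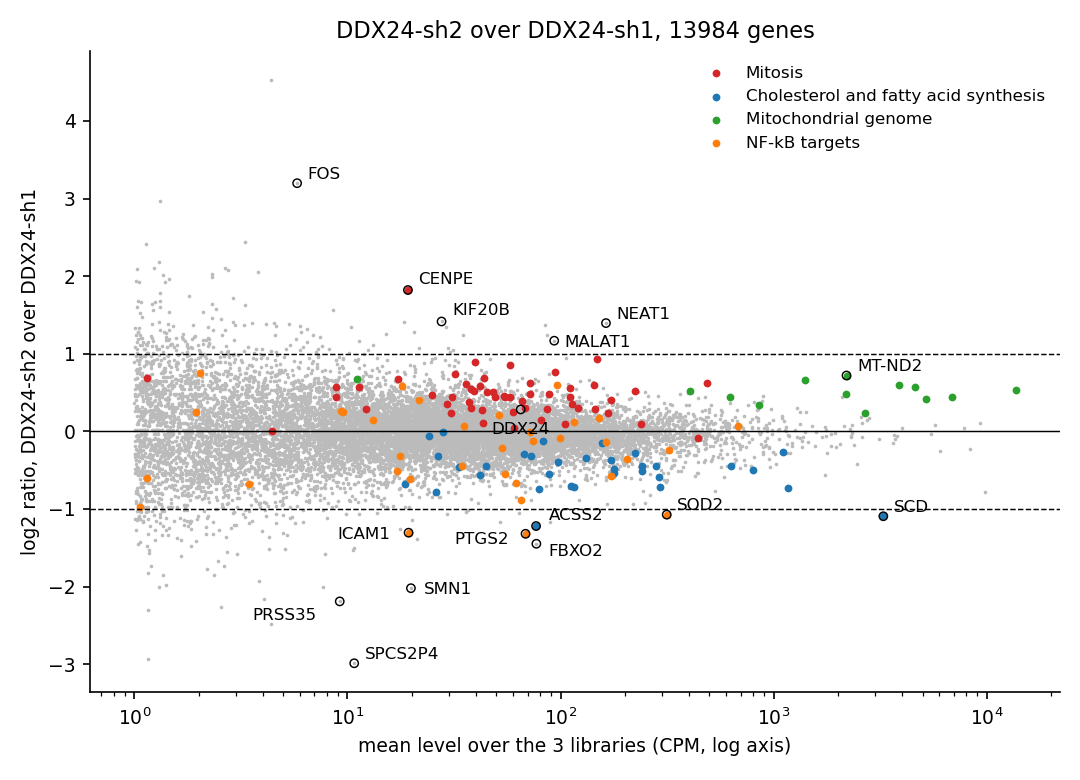
Log2 ratio of DDX24-sh2 over DDX24-sh1 for each of 13984 genes (vertical axis) against the mean level over the 3 libraries in CPM (horizontal log axis). Each point is 1 gene, the dashed lines mark 2-fold, and coloured points are members of 4 gene lists. Mitosis genes (red) lie above 0 in 52 of 54 cases and all 33 cholesterol and fatty acid genes (blue) lie below 0.

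Among the 323 genes past 2-fold, DDX24-sh2 was more often the library that stood away from the control. It was the farther of the 2 shRNA libraries for 127 of the 182 genes higher in it and for 87 of the 141 lower, leaving 109 of 323 genes (33.7%) for which DDX24-sh1 was farther. The control lay between the 2 shRNA libraries for 187 of the 323 genes. DDX24-sh2 was itself at least 2-fold from the control for 151 of them and DDX24-sh1 for 68. At 1.5-fold between the shRNA libraries, DDX24-sh1 was the farther library for 41.1% of 1422 genes. At 2-fold and a mean of at least 10 CPM it was the farther for 23.8% of 42 genes. These shares describe genes picked by their ratio and not all genes compared.

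Genes of mitosis and DNA replication were mostly higher in DDX24-sh2. The Mitosis list holds 54 genes of the spindle, the kinetochore and cytokinesis, all of which were measured. Of these, 52 were above 0 in DDX24-sh2 over DDX24-sh1, against 48.2% of all genes, with a median of 0.45. At least 1.5-fold higher were 13 members and at least 1.5-fold lower 0, and 49 intervals lay wholly above 0. Relative to Control-sh the list's median was -0.46 in DDX24-sh1, with 53 of 54 members below the control, and 0.04 in DDX24-sh2, with 26 of 54 below. Over the 12407 protein-coding genes compared, the medians to Control-sh were -0.02 in DDX24-sh1 and -0.03 in DDX24-sh2. DDX24-sh1 was the library farther from the control for 44 of the 54 Mitosis genes. The share of all genes with DDX24-sh1 farther is not given here, so this count has no background.

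CENPE, a kinesin that moves chromosomes at the kinetochore (chromosome 4, 103105806 to 103198409, minus strand), had 243, 174 and 612 counts. Its log2 ratio between the shRNA libraries was 1.82 (1.59 to 2.08), and unlike the list as a whole it was 1.25 above the control in DDX24-sh2. CENPF, a large protein of the outer kinetochore, had 2856, 1758 and 3312 counts, a ratio of 0.93 (0.85 to 1.02). HMMR, a microtubule-binding protein of the spindle, had 688, 507 and 930 counts, a ratio of 0.89 (0.74 to 1.05). For ASPM, a spindle pole protein, the counts were 1023, 737 and 1317 and the ratio 0.85 (0.73 to 0.99). In each of these genes DDX24-sh1 was the lowest and DDX24-sh2 the highest of the 3 libraries. KIF20B, a mitotic kinesin outside the list, had 344, 312 and 825 counts, a ratio of 1.42 (1.23 to 1.61). G2E3, a ubiquitin ligase of the G2 and M phases, was at 601, 346 and 708 counts, a ratio of 1.05 (0.86 to 1.24).

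DNA replication genes differed in the same direction and less. All 42 listed genes, of the replication origin, the fork and nucleotide supply, were measured, and 39 were above 0, with a median of 0.29, 4 members at least 1.5-fold higher and 0 lower. DTL, which directs the degradation of the licensing factor CDT1, had the largest ratio with 593, 472 and 733 counts, 0.65 (0.49 to 0.82). RRM2, a subunit of ribonucleotide reductase, had 715, 914 and 1403 counts, 0.64 (0.52 to 0.76). MCM10 (547, 561 and 838 counts, 0.60) and GMNN, the inhibitor of licensing geminin (411, 383 and 571 counts, 0.59), followed. The median against Control-sh was -0.22 (DDX24-sh1) and 0.05 (DDX24-sh2). Among 22 measured genes of homologous recombination and the Fanconi pathway (of 23 listed), 21 were above 0 with a median of 0.41, and 5 were at least 1.5-fold higher. BRCA2, a mediator of strand exchange in recombination, had 255, 186 and 330 counts, a ratio of 0.84 (0.58 to 1.11). XRCC2, which also acts in recombination, had 357, 248 and 443 counts, 0.85 (0.63 to 1.09), and FANCB, of the Fanconi core complex, 105, 82 and 127, 0.64 (0.24 to 1.07). RAD54L, a motor protein of recombination, was at 99, 87 and 167 counts, 0.94 (0.58 to 1.35). It shares 806 exonic bases with LRRC41 on the opposite strand, which had 1072, 1962 and 1713 counts. The list of G1 cyclins, CDKs and CDK inhibitors had a median of 0.12 over 19 measured genes, with 1 at least 1.5-fold higher and 1 lower. Of the clustered histone genes only 18 of 71 passed the level of 1 CPM, with a median of -0.09.

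Promoters of mitotic genes often hold the cell cycle genes homology region (CHR), whose core letters are TTTGAA, and a CCAAT box. RefSeq promoter windows (GRCh38.p14, 250 bases before to 50 after the gene's start) were found for 46 of the 54 Mitosis genes. On either strand, TTTGAA was present in 32 of the 46 (69.6%) and in 15.4% of all 27305 promoters, and CCAAT in 35 of the 46 (76.1%) against 35.7%. The members with TTTGAA had a median ratio of 0.51 and those without it 0.41. For CCAAT the order was reversed, with 0.46 in Mitosis members that hold it and 0.57 in those that do not. The E2F letters TTCCCGC stood in 19 of 38 DNA replication promoters (50%) against 6.56% of all. A match is a string of letters and not a binding site. Here and in the lists below, an excess over all promoters describes the list and not the difference between the shRNA libraries. The 27305 promoters include those of genes that were not compared. The promoters of CENPF (chr1:214602945-214603244, plus strand) and HMMR (chr5:163460382-163460681, plus strand) are shown because these were the 2 members of largest ratio that hold a match. Capitals mark TTTGAA, which HMMR holds 2 times in a row.
CENPF: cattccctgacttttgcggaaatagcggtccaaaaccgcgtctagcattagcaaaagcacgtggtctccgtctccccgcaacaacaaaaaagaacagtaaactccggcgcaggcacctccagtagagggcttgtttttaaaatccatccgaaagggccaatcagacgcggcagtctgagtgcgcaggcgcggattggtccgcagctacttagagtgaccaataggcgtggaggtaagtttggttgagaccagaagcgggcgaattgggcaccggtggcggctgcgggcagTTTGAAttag
HMMR: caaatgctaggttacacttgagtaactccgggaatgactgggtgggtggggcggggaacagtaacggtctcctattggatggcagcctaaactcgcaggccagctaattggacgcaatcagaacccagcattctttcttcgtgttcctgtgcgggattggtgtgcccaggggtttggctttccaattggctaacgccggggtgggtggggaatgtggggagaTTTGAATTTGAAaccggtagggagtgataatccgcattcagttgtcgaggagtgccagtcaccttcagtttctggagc

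Genes of sterol and fatty acid synthesis differed in the opposite direction. Cells control these enzymes together through the SREBP transcription factors, which are released from the endoplasmic reticulum when sterols are scarce. All 33 listed genes were measured and all 33 were below 0, with a median of -0.45. Of these, 9 were at least 1.5-fold lower in DDX24-sh2, 2 of them at least 2-fold, and 0 were 1.5-fold higher. The median against the control was 0.68 in DDX24-sh1, with 29 members above Control-sh, and 0.10 in DDX24-sh2, with 20 above. DDX24-sh1 was the farther library for 28 of the 33, again without a share over all genes beside it.

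ACSS2, which makes acetyl-CoA from acetate in the cytosol and nucleus, had 753, 2382 and 1008 counts, a ratio of -1.22 (-1.33 to -1.11). SCD, the stearoyl-CoA desaturase that makes monounsaturated fatty acids (chromosome 10, 100347124 to 100364834, plus strand), had 48549, 86834 and 40149 counts, a ratio of -1.09 (-1.11 to -1.08). In SCD the DDX24-sh2 library lay below the control by 0.35, while DDX24-sh1 lay above it by 0.74. TM7SF2, a sterol reductase, had 381, 650 and 372 counts, -0.78 (-0.97 to -0.60), and MVD, mevalonate diphosphate decarboxylase, had 891, 2130 and 1255 counts, -0.74 (-0.85 to -0.64). In these 4 genes the level was highest in DDX24-sh1. PMVK, phosphomevalonate kinase, had 527, 487 and 480 counts and an interval that held 0. SREBF1, which encodes SREBP-1, had 5724, 6210 and 3741 counts, 0.02 above the control in DDX24-sh1 and 0.69 below it in DDX24-sh2. SREBF1 and PMVK are named here after their values were seen. Outside the list, APOE, a lipid carrier, had 804, 1768 and 843 counts and a ratio of -1.05 (-1.17 to -0.93). ABCG1, which exports cholesterol, was lowest in DDX24-sh2, with 222, 147 and 47 counts and a ratio of -1.59 (-2.13 to -1.14).

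Windows were found for 26 of the 33 genes, and CCAAT, the site of the factor NF-Y, was present in 18 of them (69.2%, against 35.7% of all). Members with the letters had a median ratio of -0.54 and those without them -0.40. ACSS2 (chr20:34874739-34875038, plus strand) and SCD (chr10:100346983-100347282, plus strand) are shown as the 2 members farthest below 0, with CCAAT or its reverse complement in capitals.
ACSS2: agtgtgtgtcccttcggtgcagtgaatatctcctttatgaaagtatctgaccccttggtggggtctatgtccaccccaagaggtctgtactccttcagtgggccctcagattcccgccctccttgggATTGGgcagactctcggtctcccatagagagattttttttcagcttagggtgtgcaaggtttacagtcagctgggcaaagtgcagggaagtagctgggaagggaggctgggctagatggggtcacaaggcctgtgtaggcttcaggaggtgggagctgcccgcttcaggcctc
SCD: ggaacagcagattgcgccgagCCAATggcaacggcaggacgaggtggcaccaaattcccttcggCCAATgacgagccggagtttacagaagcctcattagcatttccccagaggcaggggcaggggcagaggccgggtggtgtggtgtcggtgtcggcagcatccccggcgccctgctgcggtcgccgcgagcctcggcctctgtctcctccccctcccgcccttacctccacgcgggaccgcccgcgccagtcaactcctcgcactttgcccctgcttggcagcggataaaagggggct

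Targets of NF-kB, the transcription factor of inflammatory and survival genes, were split. Of the 42 listed genes 34 passed the level of 1 CPM. Their median was -0.18, with 9 at least 1.5-fold lower in DDX24-sh2, 3 of these at least 2-fold, and 3 at least 1.5-fold higher. PTGS2, the inducible cyclooxygenase of prostaglandin synthesis (chromosome 1, 186671791 to 186680427, minus strand), had 2162, 1030 and 406 counts, a ratio of -1.32 (-1.49 to -1.16). ICAM1, an adhesion molecule for leukocytes, had 663, 251 and 99 counts, -1.31 (-1.67 to -0.98). CXCL1, a chemokine that attracts neutrophils, had 1809, 1064 and 567 counts, -0.89 (-1.04 to -0.74). The 3 genes were lower than Control-sh in both shRNA libraries and lowest in DDX24-sh2. SOD2, the mitochondrial superoxide dismutase, had 7076, 6574 and 3083 counts, -1.07 (-1.14 to -1.01), and so lay near the control in DDX24-sh1 alone. On the other side, BIRC3 (0.60) and CXCL2 (0.59) were higher in DDX24-sh2 than in DDX24-sh1. LCN2 had a ratio of 0.75 from only 63, 16 and 28 counts, a mean of 2.04 CPM. Its interval held 0 (-0.11 to 1.81). BIRC3, CXCL2 and LCN2 are named here after their values were seen. Over the whole list the medians to the control were close, with -0.64 (DDX24-sh1) and -0.59 (DDX24-sh2).

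The letters GGAATTTCC, GGACTTTCC or GGGATTTCC, 3 forms of the kB site, were found on either strand in 15 of 35 NF-kB target promoters (42.9%, genes below 1 CPM included) and in 1.22% of all promoters. Members with a match had a median ratio of -0.34 and those without one -0.10. CCAAT, present in 12 of the 35 promoters, split the same list more widely, with -0.41 in members that hold it and -0.05 in the others. Genes below 1 CPM have no ratio and are not in these medians, which therefore rest on fewer genes than the matches counted. The part of either motif in the ratios was not tested. ICAM1 (chr19:10270870-10271169, plus strand) and CXCL1 (chr4:73869143-73869442, plus strand) held a match and had the lowest ratios of such members, and the capitals mark the match or its reverse complement.
ICAM1: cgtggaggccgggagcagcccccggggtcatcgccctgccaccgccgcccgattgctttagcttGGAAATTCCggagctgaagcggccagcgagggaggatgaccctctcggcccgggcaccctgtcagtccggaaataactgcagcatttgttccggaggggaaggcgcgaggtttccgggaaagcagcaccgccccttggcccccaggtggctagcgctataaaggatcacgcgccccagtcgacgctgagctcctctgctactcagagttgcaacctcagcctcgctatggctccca
CXCL1: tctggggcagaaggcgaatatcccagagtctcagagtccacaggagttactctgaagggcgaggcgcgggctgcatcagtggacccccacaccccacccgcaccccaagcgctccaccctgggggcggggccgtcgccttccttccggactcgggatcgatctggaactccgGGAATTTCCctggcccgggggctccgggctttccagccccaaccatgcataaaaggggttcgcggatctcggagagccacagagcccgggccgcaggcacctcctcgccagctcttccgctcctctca

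**Figure D2:**
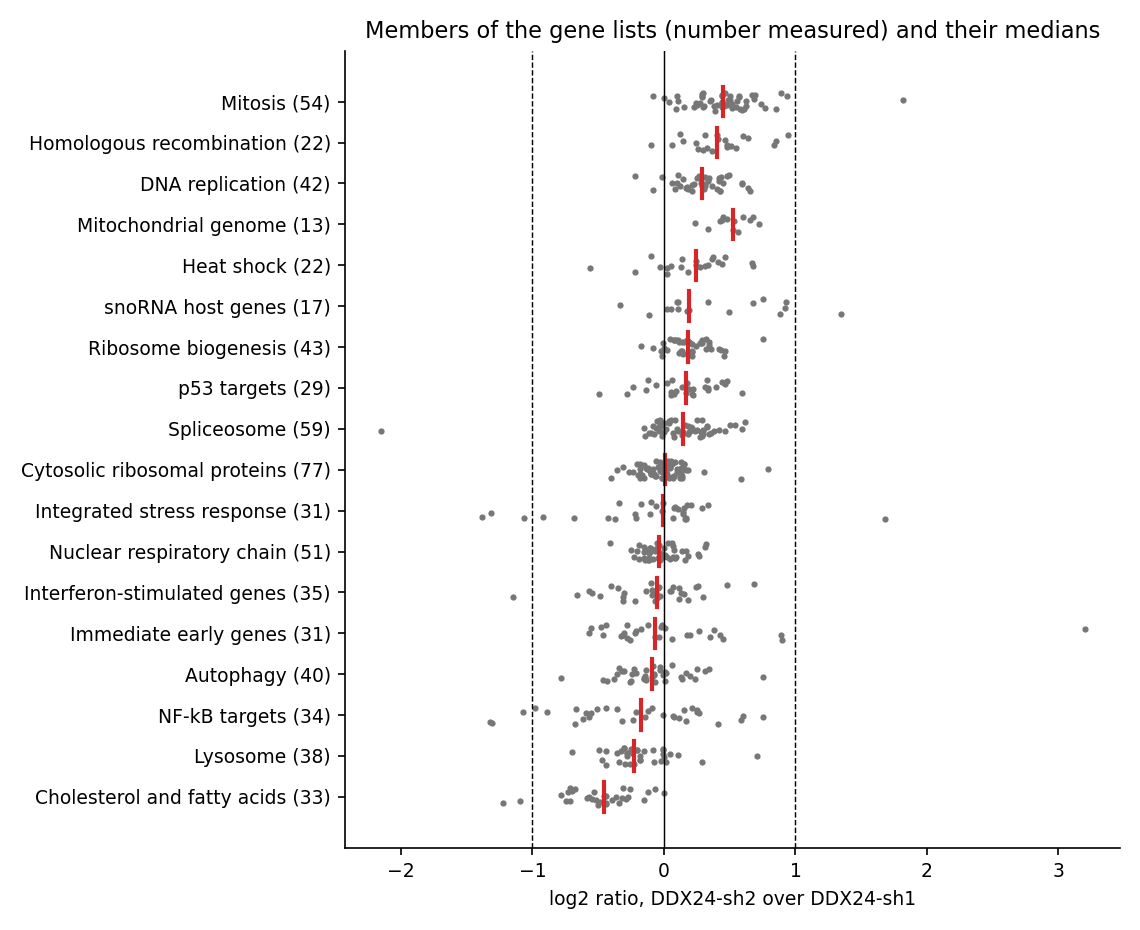
Log2 ratio of DDX24-sh2 over DDX24-sh1 (horizontal axis) for each measured member of 18 gene lists, 1 point per gene, with the list's median as a red bar, the number measured in brackets and dashed lines at 2-fold. The medians run from 0.52 for the mitochondrial genome to -0.45 for cholesterol and fatty acid synthesis, and that of cytosolic ribosomal proteins is 0.01.

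Stress pathways that lay far from the control in both shRNA libraries differed little between them. The integrated stress response, in which the kinases of eIF2 raise ATF4 and its targets, had a median of -0.01 over 31 genes, against medians to Control-sh of -1.26 and -1.21. The unfolded protein response of the endoplasmic reticulum had a median of -0.10 over 19 genes, with 0 members past 1.5-fold. A few ATF4 targets nevertheless lay lower in DDX24-sh2. CHAC1, which degrades glutathione, had 916, 130 and 48 counts, -1.38 (-1.93 to -0.93). NUPR1 had 995, 372 and 175 counts, -1.06 (-1.34 to -0.81), and TRIB3, a pseudokinase that restrains AKT and ATF4, 8089, 3269 and 1707, -0.92 (-1.0 to -0.83). ATF3, a repressive partner in this response, had 457, 63 and 38 counts, -0.68 (-1.33 to -0.11). For each of the 4 genes DDX24-sh1 stood between the control and DDX24-sh2. CTH of the same list, with a mean of 4.97 CPM, had 100, 119 and 46 counts, -1.31 (-1.88 to -0.85). In CTH, DDX24-sh1 lay above the control. Other members of the list lay higher in DDX24-sh2. SHMT2 had 2149, 1742 and 2172 counts, 0.34 (0.25 to 0.43), and MTHFD2 6435, 2095 and 2522, 0.29 (0.20 to 0.37). ASNS, with a mean of 1.04 CPM, had 37, 3 and 14 counts, 1.68 (0.40 to 4.68). CTH, SHMT2, MTHFD2 and ASNS are named here after their values were seen. Heat shock genes had a median of 0.24 with 18 of 22 above 0, led by CHORDC1, an HSP90 co-chaperone (1429, 1008 and 1595 counts, 0.68), and HSPA4L (448, 564 and 888 counts, 0.67). HSPB8, a small heat shock protein, was lower, with 502, 1011 and 675 counts and a ratio of -0.56 (-0.71 to -0.42). HSPA2, an HSP70 that is no member of the list, had 2644, 5990 and 3084 counts, -0.94 (-1.0 to -0.88). Targets of p53 had a median of 0.17 with 23 of 29 above 0, from GDF15 (10099, 3187 and 2230 counts, -0.50) to FAS (266, 400 and 596 counts, 0.59).

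FOS had the largest ratio of any gene above 5 CPM. This immediate early gene, whose protein forms AP-1 with JUN (chromosome 14, 75278774 to 75282230, plus strand), had 44, 25 and 243 counts. The ratio between the shRNA libraries was 3.20 (2.70 to 3.96), 9.18-fold. It stood 2.34 above the control in DDX24-sh2 and 0.86 below it in DDX24-sh1. The other immediate early and ERK feedback genes did not stand as far apart, and the list's median was -0.06 over 31 genes, with 3 at least 1.5-fold higher and 0 lower. EGR1, induced by the same signals, had 212, 35 and 66 counts, 0.90 (0.32 to 1.57), below the control in both libraries. JUND (2652, 2092 and 1389 counts, -0.57) and DUSP5, a phosphatase that inactivates ERK (5413, 2363 and 1586 counts, -0.56), were lowest in DDX24-sh2. The NR4A nuclear receptors are immediate early genes that the list does not hold, and all 3 were lowest in DDX24-sh2. NR4A2 had 238, 196 and 79 counts, -1.27 (-1.69 to -0.91). NR4A1 had 1036, 608 and 297 counts, -1.01 (-1.22 to -0.81), and NR4A3 had 318, 82 and 40 counts, -0.98 (-1.6 to -0.45). NR4A1 and NR4A3 are named here after their values were seen.

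The protein-coding genes of the mitochondrial genome were all higher in DDX24-sh2. All 13 protein-coding genes lay above 0, with a median of 0.52, 4 of them at least 1.5-fold higher, and with medians to the control of 0.25 (DDX24-sh1) and 0.74 (DDX24-sh2). MT-ND2, a subunit of complex I, had 30599, 33173 and 53913 counts, 0.72 (0.70 to 0.74). MT-ND5, of the same complex, had 14976, 23586 and 36723 counts, 0.66 (0.63 to 0.68). The ATP synthase subunits MT-ATP6 (50617, 63073 and 94365 counts, 0.60) and MT-ATP8 (140, 177 and 280 counts, 0.67) were similar. Of the 13 mitochondrial tRNA genes that passed 1 CPM, 9 were at least 2-fold higher, with a median of 1.18. The 51 nuclear genes of the respiratory chain, whose products join the mitochondrial subunits, had a median of -0.04 and 0 members past 1.5-fold. Nuclear copies of MT-ND2 and MT-ATP6 (MTND2P28, 98.4% identical, and MTATP6P1, 98.5%) can take reads from them and were also higher, at 2165 and 3376 counts and at 6612 and 7175 counts in DDX24-sh1 and DDX24-sh2. The share of all counts on mitochondrial genes, given above, moved with these values, and its part in them was not tested.

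Over the 354 lincRNA genes the median ratio was 0.01. Among the genes named for their high ratios, 4 long non-coding RNAs are known to act in or stay in the nucleus. They were grouped after their values were seen, and no list of nuclear RNAs was examined. The non-coding genes WFDC21P and LINC00472, named for their low ratios, are given further below. NEAT1, the long non-coding RNA of paraspeckles (chromosome 11, 65422774 to 65445540, plus strand), had 1852, 1921 and 4990 counts, 1.40 (1.32 to 1.47). MALAT1, of nuclear speckles, had 958, 1261 and 2799 counts, 1.17 (1.07 to 1.27). MEG3, an imprinted non-coding RNA, had 252, 485 and 1135 counts, 1.24 (1.09 to 1.40), and FTX, of the X-inactivation centre, 91, 93 and 276, 1.57 (1.24 to 1.94). Each of these was highest in DDX24-sh2, and NEAT1 and FTX lay within 0.07 of the control in DDX24-sh1. FTX overlaps JPX on the opposite strand, which had 16, 8 and 20 counts. AC006058.1, with 170, 225 and 591 counts, had a ratio of 1.40 (1.19 to 1.64) and shares exons with AC006058.4 on the other strand (51, 76 and 195 counts). The files give no cytoplasmic or nuclear fraction, and how RNA was selected for the libraries is not stated beyond total RNA.

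Of the host genes of small nucleolar RNAs, 15 of 17 measured members were above 0, with a median of 0.19 and 6 at least 1.5-fold higher. Their spliced RNAs are mostly short-lived. SNHG12 had 148, 115 and 291 counts, 1.34 (1.04 to 1.68), SNHG1 1063, 485 and 915, 0.93 (0.77 to 1.10), and SNHG3 536, 407 and 762, 0.92 (0.75 to 1.10). SNHG20 was at 150, 75 and 138 counts, 0.88 (0.48 to 1.32). DDX24-sh1 was the lowest library for all 4. Ribosome biogenesis genes had a median of 0.18, with 38 of 43 above 0 and 1 past 1.5-fold, TAF1D, a subunit of the RNA polymerase I factor SL1 (741, 596 and 993 counts, 0.75), which also hosts snoRNAs. NPM1, the nucleolar chaperone, had 15990, 13329 and 18089 counts, 0.46 (0.43 to 0.49), and NOP58, of the box C/D snoRNP, 1739, 1552 and 2115, 0.47 (0.37 to 0.56). The cytosolic ribosomal proteins themselves had a median of 0.01 over 77 genes. Spliceosome and splicing regulator genes had a median of 0.14, with 42 of 59 above 0 and 2 at least 1.5-fold higher. The SR proteins led: SRSF2 had 1308, 1802 and 2724 counts, 0.61 (0.53 to 0.70), SRSF7 1880, 1822 and 2622, 0.54 (0.46 to 0.63), and TRA2A, an SR-like splicing activator, 927, 846 and 1261, 0.59 (0.47 to 0.72). SRSF2 overlaps MFSD11 on the opposite strand. The DEAD-box and DEAH-box helicases other than DDX24 had a median of 0.05 over 48 genes, with DDX39B, an mRNA export helicase, the only one past 1.5-fold (516, 480 and 720 counts, 0.60).

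**Figure D3:**
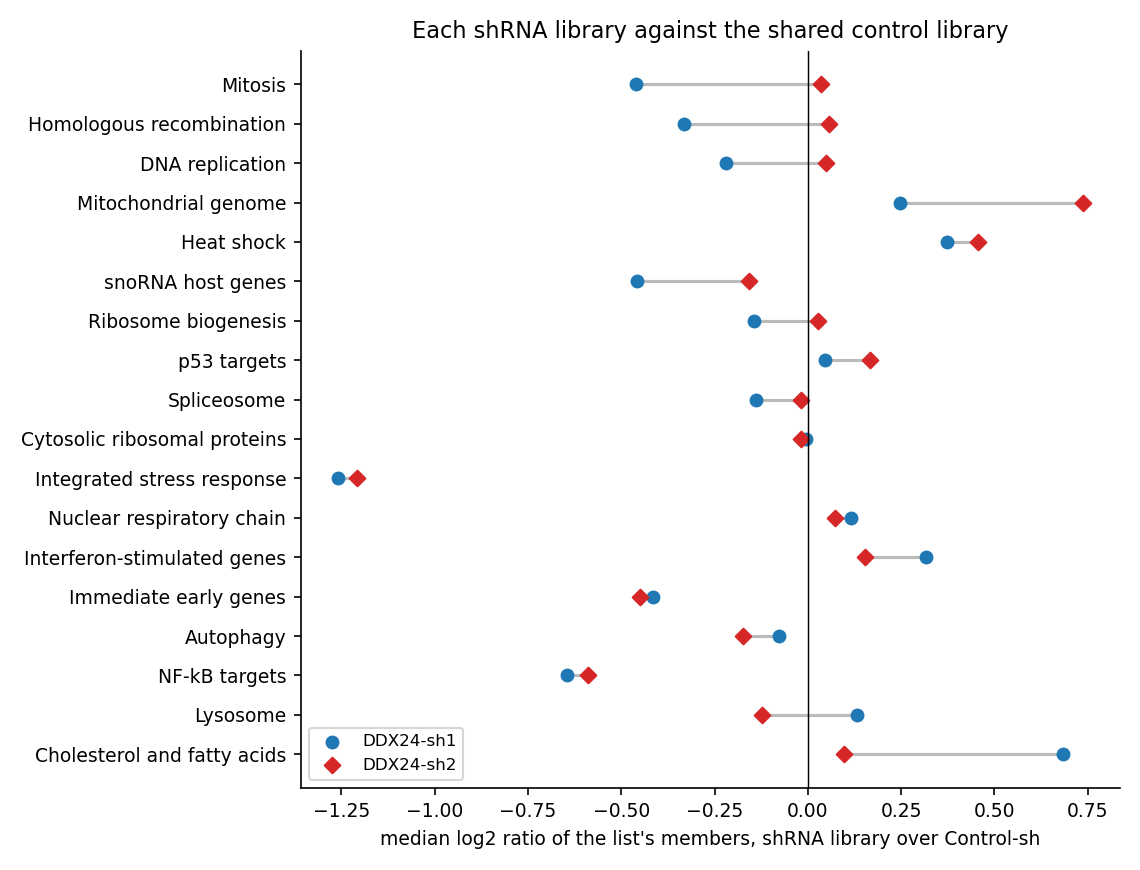
Median log2 ratio of each list's members to Control-sh (horizontal axis) in DDX24-sh1 (blue circles) and DDX24-sh2 (red diamonds) for the same 18 lists. Both values of a list share the 1 control library. DDX24-sh1 is the library away from 0 for Mitosis (-0.46 against 0.04) and for cholesterol and fatty acids (0.68 against 0.10), and DDX24-sh2 for the mitochondrial genome (0.74 against 0.25).

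Single protein-coding genes lower in DDX24-sh2 differed in which library stood away from the control. PRSS35, a serine protease-like secreted protein, had 64, 359 and 76 counts, -2.19 (-2.60 to -1.86). FBXO27, a substrate receptor of an SCF ubiquitin ligase for glycoproteins, had 222, 593 and 265 counts, -1.14 (-1.36 to -0.93). AGFG2 had 2264, 4388 and 2265 counts, -0.93 (-1.01 to -0.86). In these 3 genes DDX24-sh2 lay close to the control. SLC6A12, a betaine and GABA transporter (112, 242 and 58 counts, -2.0, interval -2.48 to -1.62), FBXO2, the receptor related to FBXO27 (1122, 2213 and 799 counts, -1.45, interval -1.57 to -1.33), and PADI2, which converts protein arginine to citrulline (160, 308 and 104 counts, -1.53, interval -1.88 to -1.22), had the control in between. UPK3B, a uroplakin, was of the same kind with 851, 1336 and 587 counts (-1.16). COL12A1, a collagen associated with fibrils, had 1756, 2081 and 915 counts, -1.16 (-1.28 to -1.05), and here DDX24-sh2 was the library away from the control. C1QL4 was similar at 97, 131 and 44 counts (-1.51).

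Single protein-coding genes higher in DDX24-sh2 had several functions. GABRE, a subunit of the GABA-A receptor, had 245, 375 and 947 counts, 1.35 (1.18 to 1.53). LENG8 had 976, 1100 and 2560 counts, 1.24 (1.14 to 1.34), and PABPC1L, a poly(A)-binding protein, 184, 188 and 445, 1.25 (1.01 to 1.52). AKAP9, a scaffold of the centrosome and Golgi, had 433, 376 and 782 counts, 1.07 (0.90 to 1.26). The centrosomal and ciliary genes CEP290 (297, 236 and 568 counts, 1.28) and CFAP44 (68, 60 and 158 counts, 1.39) and the golgin GOLGA4 (1796, 1327 and 2527 counts, 0.95) also had their highest value in DDX24-sh2. So did GABBR1, of the GABA-B receptor (90, 83 and 196 counts, 1.24), AADAC, an esterase (184, 166 and 357 counts, 1.11), ZDHHC11 (64, 88 and 195 counts, 1.15), ZGRF1 (97, 63 and 145 counts, 1.2) and AMH, anti-Mullerian hormone (99, 65 and 159 counts, 1.28). ID2, an inhibitor of DNA binding downstream of BMP signals, was at 372, 408 and 763 counts, 0.92 (0.75 to 1.10). ANKRD12 differed from these, with 274, 128 and 263 counts, 1.05 (0.75 to 1.37), so that DDX24-sh1 was the library away from the control. CEP290 shares 401 exonic bases with C12orf29 on the opposite strand.

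**Figure D4:**
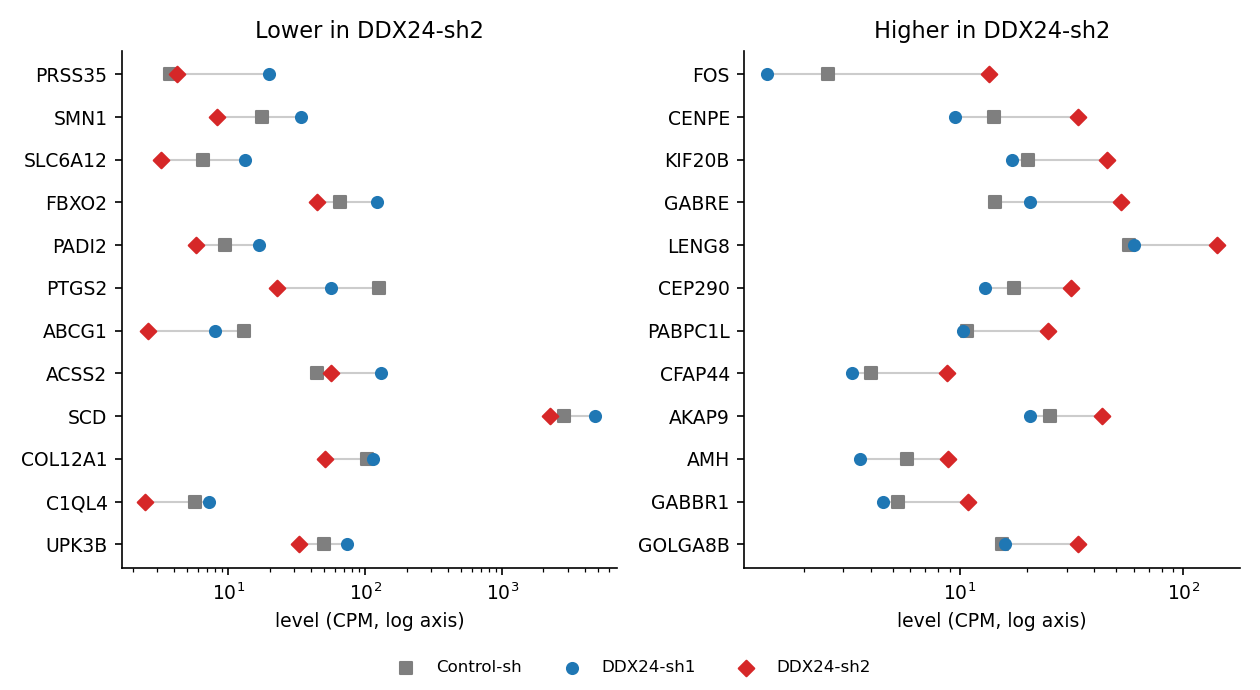
Level in CPM (horizontal log axis) in Control-sh (grey squares), DDX24-sh1 (blue circles) and DDX24-sh2 (red diamonds), 1 library each, for the 12 protein-coding genes with the most negative and the 12 with the most positive ratio, ordered by the end of the interval nearest 0. PRSS35 is at 19.6 CPM in DDX24-sh1 and at 4.21 in DDX24-sh2, and FOS at 1.37 and 13.5 CPM.

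Some of the largest ratios belong to genes with a near-identical copy, between which reads may have been assigned unevenly. SPCS2P4, a processed pseudogene of the signal peptidase subunit SPCS2 and 99.1% identical to it, had the lowest ratio of any gene above 5 CPM, with 174, 360 and 43 counts, -2.99 (-3.54 to -2.59). SPCS2 had 1260, 823 and 1130 counts, and the sum of both was level between the shRNA libraries at 0.01 (-0.11 to 0.12). AP001000.1 (82, 370 and 127 counts, -1.51), 99.2% identical to DNAJB6, gave a sum with it of -0.06 (-0.13 to 0.01). HERC2P2 (911, 1022 and 2616 counts, 1.37) gave 0.33 (0.28 to 0.38) with HERC2 and HERC2P9, and FTH1P7 (526, 598 and 328 counts, -0.84) gave -0.42 with FTH1 and 5 of its pseudogenes. In contrast, SMN1 (chromosome 5, 70925030 to 70953942, plus strand), which encodes a protein of snRNP assembly, had 298, 619 and 149 counts, -2.02 (-2.30 to -1.78), and the sum with its copy SMN2, 99.9% identical with 68, 78 and 106 counts, remained at -1.42 (-1.64 to -1.22). GOLGA8B (262, 290 and 607 counts, 1.08) gave 1.05 (0.88 to 1.22) with GOLGA8A, and TMEM191A (92, 149 and 64 counts, -1.17) gave -1.08 with TMEM191C. The remaining non-coding genes named by the rule, WFDC21P (315, 449 and 184 counts, -1.26) and LINC00472 (123, 195 and 94 counts, -1.02), were lowest in DDX24-sh2.

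Below 5 CPM, 2 genes were singled out after their values were seen. XAGE1A, a cancer-testis antigen gene of the X chromosome, had 1, 8 and 227 counts, the largest ratio of all 13984 genes at 4.53 (3.84 to 6.07). It is 100% identical to XAGE1B over 733 bases, and the sum of both was 14, 32 and 252 counts, 2.92 (2.46 to 3.58). U2AF1, the small subunit of the factor that recognises the 3′ splice site, had 21, 165 and 35 counts, -2.15 (-2.79 to -1.68), the only spliceosome member at least 2-fold lower. Its copy U2AF1L5 in the same genome build, 99.98% identical over 4656 bases, had 202, 55 and 104 counts, and the sum of 223, 220 and 139 counts gave -0.64 (-0.96 to -0.33).

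The other lists had medians within 0.25 of 0. Lysosomal genes were mostly lower in DDX24-sh2, 33 of 38 with a median of -0.23, and were on opposite sides of the control in median (0.13 (DDX24-sh1) and -0.12 (DDX24-sh2)). NEU1, a sialidase, had 912, 1271 and 773 counts, -0.70 (-0.83 to -0.57), and CTSD, an aspartic protease, 5293, 7225 and 5141, -0.47 (-0.52 to -0.42). Autophagy genes had a median of -0.09 with 27 of 40 below 0, 1 at least 1.5-fold higher and 1 lower. The lower one was MAP1LC3A, an LC3 of the autophagosome membrane (198, 266 and 152 counts, -0.78, interval -1.09 to -0.50). Interferon-stimulated genes had a median of -0.05 over 35 genes, MHC class I presentation 0.04 over 17, NRF2 targets -0.05 over 26, and glycolysis and hypoxia 0.00 over 32. Collagens, laminins and other matrix had -0.05 over 35, proteases, serpins and TIMPs -0.13 over 18, cadherins, junctions and EMT factors 0.01 over 21, and targets of actin-SRF and YAP-TEAD -0.06 over 31. The TGF-beta and BMP list had -0.12 over 21, the EGFR family and its ligands -0.10 over 13, the BCL2 family -0.05 over 14, acute-phase and complement proteins -0.17 over 12, and airway and lung epithelial genes 0.09 over 20. Only 3 of 13 listed markers of other cell types passed 1 CPM, with a median of -0.21. Single members of these lists lay farther from 0 than the medians. ALDOC, of the glycolysis and hypoxia list, had 49, 167 and 75 counts, -1.11 (-1.55 to -0.73). Below 5 CPM, MUC5B of the airway list had 143, 3 and 25 counts, 2.44 (1.37 to 5.45). BMP2 had 52, 46 and 17 counts, -1.32 (-2.31 to -0.59). MUC5B and BMP2 are named here after their values were seen. Some strongly expressed members had smaller ratios. JUP, plakoglobin of junctions, had 10694, 11192 and 6511 counts, -0.76 (-0.81 to -0.72), HMOX1, the inducible heme oxygenase, 11083, 7098 and 4833, -0.54 (-0.59 to -0.48), and EGFR 16717, 10516 and 8004, -0.37 (-0.42 to -0.33). VIM, vimentin, had 5368, 5960 and 8222 counts, 0.48 (0.44 to 0.53).

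Of the genes that the study follows in its other experiments, 7 are given here beside DDX24. IKBKG, the regulatory subunit of the IkB kinase, had 296, 268 and 279 counts, 0.08 (-0.17 to 0.32). BECN1, an activator of autophagy, had 862, 879 and 850 counts, -0.03 (-0.17 to 0.11), CTSB, a lysosomal protease, 25315, 29904 and 29384, -0.01 (-0.03 to 0.02), and TANK, which binds TRAF proteins, 939, 1002 and 935, -0.08 (-0.21 to 0.05). For these 4 the difference between the hairpins was not detectable at this depth. PBRM1, of the PBAF chromatin remodelling complex, had 699, 653 and 806 counts, 0.32 (0.17 to 0.47), and MAPK8, the kinase JNK1, 583, 479 and 536, 0.18 (0.00 to 0.36). PTK2B, a focal adhesion-type kinase, was lower in DDX24-sh2, with 602, 605 and 420 counts, -0.51 (-0.69 to -0.33). Counts per gene hold no exon junctions, so they give total expression and not isoforms.

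The ratio moved with the base composition of the transcripts. Over 12402 protein-coding genes, the median ratio went from 0.09 in the quintile of genes with the lowest GC content (of the longest annotated transcript) to -0.12 in the quintile with the highest, with a Spearman correlation across genes of -0.30, a description since genes of 1 library are not independent. Gene length showed little of this (0.05). Mitosis genes are relatively poor in GC, with a median of 43.2%, against 48.4% for all, and lipid genes richer, with 52.2%. Measured against the median of all genes in their own quintile, Mitosis had a median of 0.45, DNA replication of 0.33, cholesterol and fatty acid synthesis of -0.42 and NF-kB targets of -0.15. The Mitosis ratios themselves differed by quintile, with a median of 0.60 in the lowest and 0.04 in the highest, the last from 3 genes. The part of base composition in these lists and in single genes was not tested.

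**Figure D5:**
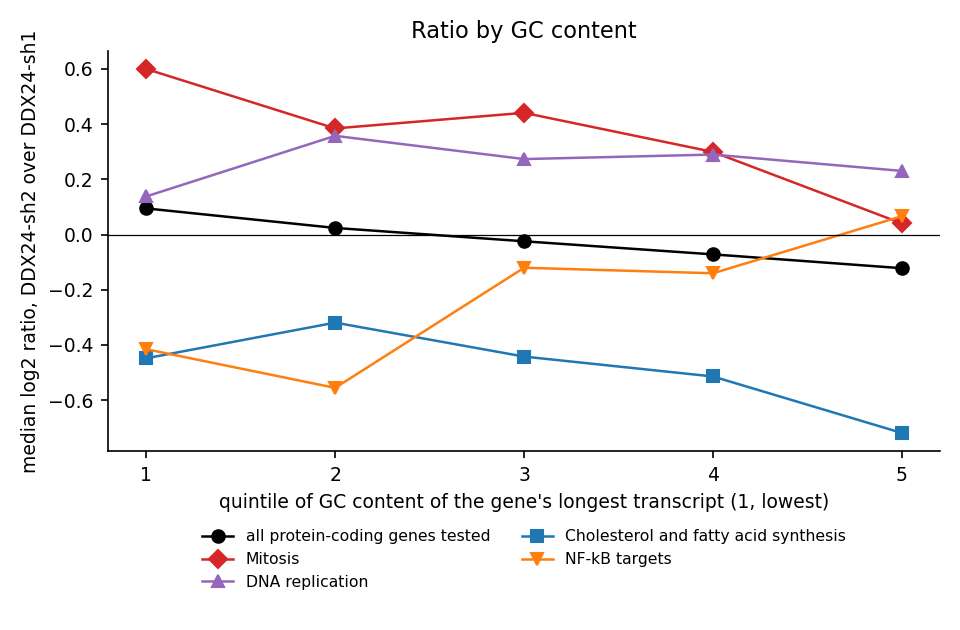
Median log2 ratio of DDX24-sh2 over DDX24-sh1 (vertical axis) in quintiles of GC content of the longest transcript (horizontal axis, 1 the lowest), for all 12402 protein-coding genes and for members of 4 lists. All genes go from 0.09 to -0.12, while cholesterol and fatty acid genes stay between -0.32 and -0.72. Mitosis members go from 0.60 to 0.04, the last from 3 genes.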

How the data were processed

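RNA was sequenced from 3 A549 lines (Control-sh, DDX24-sh1, DDX24-sh2), 1 library each, with 17218884 to 18337471 counts per library. The authors deposited raw read counts per gene and FPKM values (fragments scaled by gene length and library total) made from the same reads. Per the submitters' processing notes the tools were Bowtie2 2.0.6, TopHat2 2.0.9, Cufflinks 2.1.1 and Cuffdiff 2.1.1, with no role given; the counting tool and its strand setting are not given in the sources used here. Identifiers and positions match GENCODE 29 on GRCh38.

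Counts were scaled by TMM (edgeR 4.0.16, R 4.3.3) and compared as log2 CPM with a prior count of 2 in genes averaging 1 CPM or more over the 3 libraries. Intervals are exact 95% Clopper-Pearson intervals of the count in 1 shRNA library out of both (scipy 1.17.1) and cover counting error only, since without molecular identifiers PCR duplicates of a molecule can be counted again. No test between libraries was made. FPKM served only as an alternative, as log2(FPKM + 0.1), and to compare labels. Samples were grouped by their labels.

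Named genes, each averaging 5 CPM or more unless stated, were the 20 protein-coding genes and 6 genes of other types at either end, ranked by the interval's end nearest 0, up to 4 members of each of 35 lists by absolute ratio, 8 genes measured in the study, and up to 10 genes on opposite sides of the control. The comparison, the lists and the rule were chosen with earlier results of these data known. Near-identical copies were sought with blastn 2.17.0, and promoter windows and their sequences came from RefSeq (GRCh38.p14). The intervals were checked on simulated counts. Alternatives were DESeq2 1.42.0 size factors, total counts, scaling without the mitochondrial genome, another prior count, other filters and thresholds, and FPKM. Some genes are not reported here.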

Additional observations from a re-analysis of the deposited data

Results flagged for a closer look

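In 7 genes averaging 5 CPM or more the shRNA libraries lay at least 1.5-fold on opposite sides of Control-sh. With 1 library each, the difference was not tested. DDX24-sh1 was above and DDX24-sh2 below the control for SPCS2P4 (log2 ratio of DDX24-sh2 over DDX24-sh1 -2.99), SMN1 (-2.02), SLC6A12 (-2.0), PADI2 (-1.53) and TMEM191A (-1.17). The reverse held for FOS (3.20) and AMH (1.28). SPCS2P4, SMN1 and TMEM191A have near-identical copies, and for SPCS2P4 the sum with its copy was level between the shRNA libraries (0.01, interval -0.11 to 0.12).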

How the results depend on the processing

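The 182 genes higher and 141 lower at 2-fold became 21 and 21 at a mean of at least 10 CPM, 1675 and 1017 with no filter on level, 745 and 677 at 1.5-fold, and 37 and 29 at a log2 ratio of 1.5. Protein-coding genes alone gave 88 higher and 102 lower. FPKM gave 100 higher and 119 lower with its labels as given, and 119 higher and 100 lower with the shRNA labels exchanged. The share of genes for which DDX24-sh1 was farther from the control, 33.7%, became 23.8% at 10 CPM, 43.2% with no filter and 41.1% at 1.5-fold. With the FPKM labels as given, directions turned: DDX24 was at -0.27, and the medians were -0.29 for DNA replication, -0.44 for Mitosis, -0.52 for the mitochondrial genome, 0.45 for cholesterol and fatty acid synthesis and 0.18 for NF-kB targets. This follows from the exchanged labels. The other scalings moved the median of all genes by at most 0.02. Excluding mitochondrial genes (173 higher, 141 lower) and centring on quintiles of GC content were chosen after seeing the data. No replicate could be left out with 1 library per condition. No paired analysis was possible because each condition has 1 library.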

Other observations

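Gene types other than protein-coding made up 133 of the 323 genes past 2-fold, 94 higher and 39 lower in DDX24-sh2. Of the 12407 protein-coding genes 0.709% were at least 2-fold higher and 0.822% lower, against 1.3% and 1.01% of all genes. Past 2-fold genes were mostly weakly expressed, and the part of level in the difference between gene types was not tested. Among 173 transcribed unprocessed pseudogenes, which arose by duplication and keep introns, 14 were at least 2-fold higher and 2 lower, with a median log2 ratio of 0.21. The 14 are 8.09% of the type, against 1.3% of all genes at least 2-fold higher and 8.64% of all genes with a mean of 1 to 5 CPM past 2-fold in either direction. Of 354 lincRNA genes 23 were higher and 10 lower, with a median of 0.01. Processed pseudogenes, copies of spliced mRNAs, were even, with 11 higher and 11 lower of 274.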
